A study of Mus musculus with 36 samples.

Results

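The genes described here were 172 members of the adipogenesis hallmark, a published collection of genes that are more abundant in fat cells, out of 21650 genes measured. They were chosen by hallmark flags and by symbol, with earlier results of these data known. Of 195 adipogenesis genes in the deposited hallmark table, 181 carried no flag for the MYC targets V1, myogenesis or E2F targets hallmarks. Of these, 179 had expression values, and 7 were then set aside by symbol. Those 7 belong to a named group of 9 adipocyte identity, hormone and immune genes (Adipoq, Lep, Fabp4, Cidec, Lpl, Pparg, C3, Csf1 and Stat5a). By what their products do, 27 of the members were placed in a lipid list, 54 in a mitochondrial list and 91 in neither, so that lipid or mitochondrial metabolism described 81 of the 172 members and not the whole set. The fatty acid metabolism hallmark also held 29 of them.

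Expression was measured by RNA sequencing in 36 mouse libraries, 3 for each of 12 groups. Tumors were raised by intraductal inoculation, in which cancer cells suspended with Matrigel, a gel of basement membrane proteins, are delivered through the teat into the milk duct of a lactating mammary gland. Metastatic 4T1 cells, a luciferase-expressing line derived from BALB/c mice, were given to BALB/c females, and non-metastatic Py230 cells, derived from C57BL/6 mice, were given to C57BL/6 females. Glands of both strains that had received Matrigel without cells served as controls. Primary tumors or control glands were collected at 1, 3 or 6 weeks post-inoculation (w p.i.), and ages were not given in the labels. Each model is 1 cell line in 1 strain, so an effect of the cell line and an effect of the mouse strain cannot be told apart in a direct comparison of the tumors. Whole tissue was profiled. A lower level in such tissue can come from fewer cells of a type or from less RNA per cell, and these cannot be told apart. The labels do not say whether the 3 samples of a group came from separate animals. The p-values measure only the spread between samples of a group, estimated for each gene over all 12 groups together.

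Adipocytes store triglyceride in a lipid droplet, build it from fatty acids and glycerol phosphate, and release it again by a series of lipases. Differentiating fat cells also expand their mitochondria, and enzymes of fatty acid oxidation, the citric acid cycle and the respiratory chain stand in this hallmark beside lipases and lipid-synthesis enzymes. The mammary gland consists of a branching epithelium embedded in a fat pad. Lipid genes in such tissue are read from adipocytes and also from the milk-producing epithelium, whereas most mitochondrial enzymes are used by nearly every cell, tumor cells included. The lists were followed separately over the 12 groups.

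The deposited values are scores standardized within each library, with mean 0 and SD 1 over the 21650 genes, and not read counts. A score of 1 lies 1 SD above the average gene of its library, a negative score lies below it, a score of 0 is no absence of expression, and differences are given in score units with their SE and are not fold changes. Over all members and tumor comparisons the SE lay between 0.0290 and 0.377 score units. This is the error of each member difference printed without its own. Some marker differences had a larger SE, such as 0.624 for Ucp1 in 4T1 tumors against BALB/c glands at 6 w p.i. Read depth per library cannot be recovered from such scores and is unknown here. A gene was called where its adjusted p (limma, Benjamini-Hochberg over all 21650 genes) was under 0.05. The highest correlation between any 2 libraries was 0.993, so none was a copy of another.

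Some libraries stood apart within their group. Replicate 2 of the BALB/c Matrigel glands had the highest score of the 3 libraries for 53 of the 54 mitochondrial members at 1 w p.i. and again at 3 w p.i., and for 21 and 23 of the 27 lipid members. The same libraries had scores for Ucp1, the uncoupling protein that defines brown fat, of 1.63 and 1.30, whereas the other BALB/c glands of those weeks lay between -1.18 and -1.82. Replicate 2 of the C57BL/6 glands at 1 w p.i. (Ucp1 score -1.0, against -2.04 and -2.06) was highest for 43 of the 54 mitochondrial members. The mean of 8 skeletal muscle markers also differed among these glands. It was 1.51, 2.49 and -0.420 in BALB/c and 1.39, 2.64 and -0.694 in C57BL/6 glands at 1 w p.i., in replicate order, and 1.92, 1.87 and 0.0532 in BALB/c glands at 3 w p.i. BALB/c gland replicate 3 was the lowest library for 52 of the 54 mitochondrial members at 1 w p.i. and for 53 at 3 w p.i., and C57BL/6 replicate 1 for 50 at 1 w p.i. At 3 w p.i., replicate 1 of the 4T1 tumors was the lowest library for 53 mitochondrial and 23 lipid members, and replicate 1 of the Py230 tumors for 40 and 24. The mean score of 10 adipocyte markers was 0.874, 2.14 and 2.26 in the 4T1 tumors and 0.449, 1.79 and 2.04 in the Py230 tumors of that week, in replicate order. Results that rest on these libraries are given with and without them.

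Tumors lay below the glands on both lists at 6 w p.i., and further below on the lipid list. The mean score of its 27 members was 0.713, 0.692 and 0.753 in replicates 1 to 3 of the 4T1 tumors and 1.38, 1.27 and 1.30 in the BALB/c glands, with 0.783, 0.782 and 0.893 in the Py230 tumors and 1.25, 1.49 and 1.36 in the C57BL/6 glands. Tumors and glands did not overlap in either model. At 1 w p.i. the same mean was 1.07, 1.20 and 1.09 in 4T1 and 1.20, 1.34 and 1.21 in Py230 tumors, against 1.40, 1.57 and 1.30 in BALB/c and 1.28, 1.39 and 1.36 in C57BL/6 glands. The mitochondrial mean of 54 members moved over a narrower range. It was 0.858, 0.841 and 0.861 in 4T1 and 0.932, 0.926 and 0.953 in Py230 tumors at 6 w p.i., below 1.13, 1.12 and 1.10 in BALB/c and 1.01, 1.20 and 1.08 in C57BL/6 glands. The tumors at 3 w p.i. had the widest spread on the lipid list, with means of 0.897, 1.43 and 1.48 in 4T1 and 0.808, 1.22 and 1.36 in Py230 tumors.

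**Figure D1:**
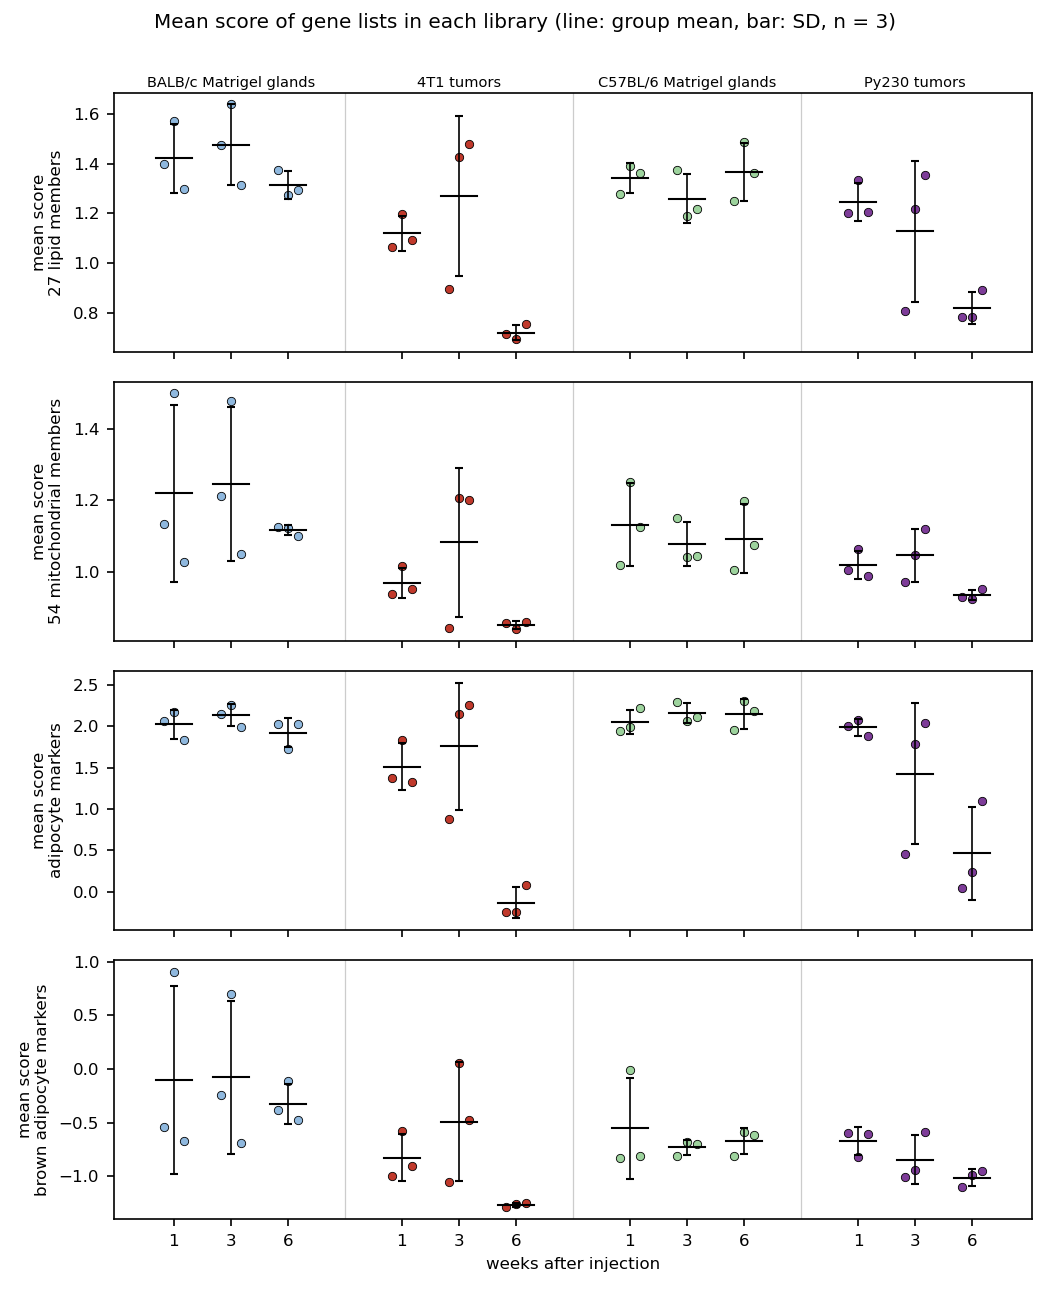
Mean score of the lipid members, the mitochondrial members, the adipocyte markers and the brown adipocyte markers in each library (y axis, score units) by group and week post-inoculation (x axis); each point is 1 library, each line a group mean and each bar the SD (n = 3). The lipid means of the week 6 tumors lie between 0.692 and 0.893, under all glands of that week (1.25 to 1.49), and the mitochondrial means of those tumors lie between 0.841 and 0.953.

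Compared with the Matrigel glands of the same strain at 6 w p.i., 20 of the 27 lipid members were lower and 0 higher in 4T1 tumors, where 60.1% of all genes were called and 21.5% were called lower. In Py230 tumors 23 were lower and 2 higher, where 47.6% of all genes were called and 18.7% were called lower. The median difference of the lipid members was -0.515 in 4T1 and -0.400 in Py230, beside medians of 0.0651 and 0.0337 over all genes. Every 4T1 library lay under every BALB/c gland for 22 members and every Py230 library under every C57BL/6 gland for 24, which was so for 25.1% and 26.3% of all genes. The lists were set against the markers of other cell types in the same libraries. All 10 adipocyte markers, 6 of which are among the genes set aside above, were lower in both models (median difference -2.12 in 4T1 and -1.72 in Py230). Their mean score was -0.246, -0.243 and 0.0811 in 4T1 and 0.0383, 0.242 and 1.10 in Py230 tumors, and 1.72 to 2.31 in the glands of that week, and their part in the result was not tested.

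Proteins of the lipid droplet and of lipolysis differed most among the lipid sublists, with all 4 lower in both models and medians of -1.19 and -0.997. Lipe, the hormone-sensitive lipase that cleaves diacylglycerol (chr7:25379527-25398710 in mm10, minus strand), scored 0.465, 0.525 and 0.487 in 4T1 tumors and 1.91, 1.67 and 1.84 in BALB/c glands. In Py230 tumors it scored 0.482, 0.485 and 1.00, with 1.73, 2.10 and 1.91 in C57BL/6 glands. Tumor and gland libraries were thus fully separate, and the differences were -1.32 ± 0.243 (SE, n = 3 per group, adjusted p = 5.4e-05) and -1.26 ± 0.243 (adjusted p = 0.000158). Mgll, the monoacylglycerol lipase that completes lipolysis, scored 0.457, 0.515 and 0.704 in 4T1 tumors against 2.01, 1.84 and 2.00 in the glands, and 0.980, 0.993 and 1.25 in Py230 tumors against 1.87, 2.18 and 2.08. All tumor libraries again lay under all gland libraries, with differences of -1.39 ± 0.195 and -0.968 ± 0.195 (adjusted p = 1.32e-06 and 0.000234). Plin2, the coat protein found on lipid droplets of most cell types, differed less, with 1.53, 1.55 and 1.41 in 4T1 and 1.53, 1.49 and 1.66 in Py230 tumors against 1.89, 1.81 and 1.93 and 1.77, 1.89 and 1.75 in their glands. Its differences were -0.379 ± 0.0635 (adjusted p = 1.55e-05) and -0.241 ± 0.0635 (adjusted p = 0.00284). Cidea, a droplet protein that is also abundant in brown fat, differed by -1.07 ± 0.317 and -1.03 ± 0.317 (adjusted p = 0.00551 and 0.00937).

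**Figure D2:**
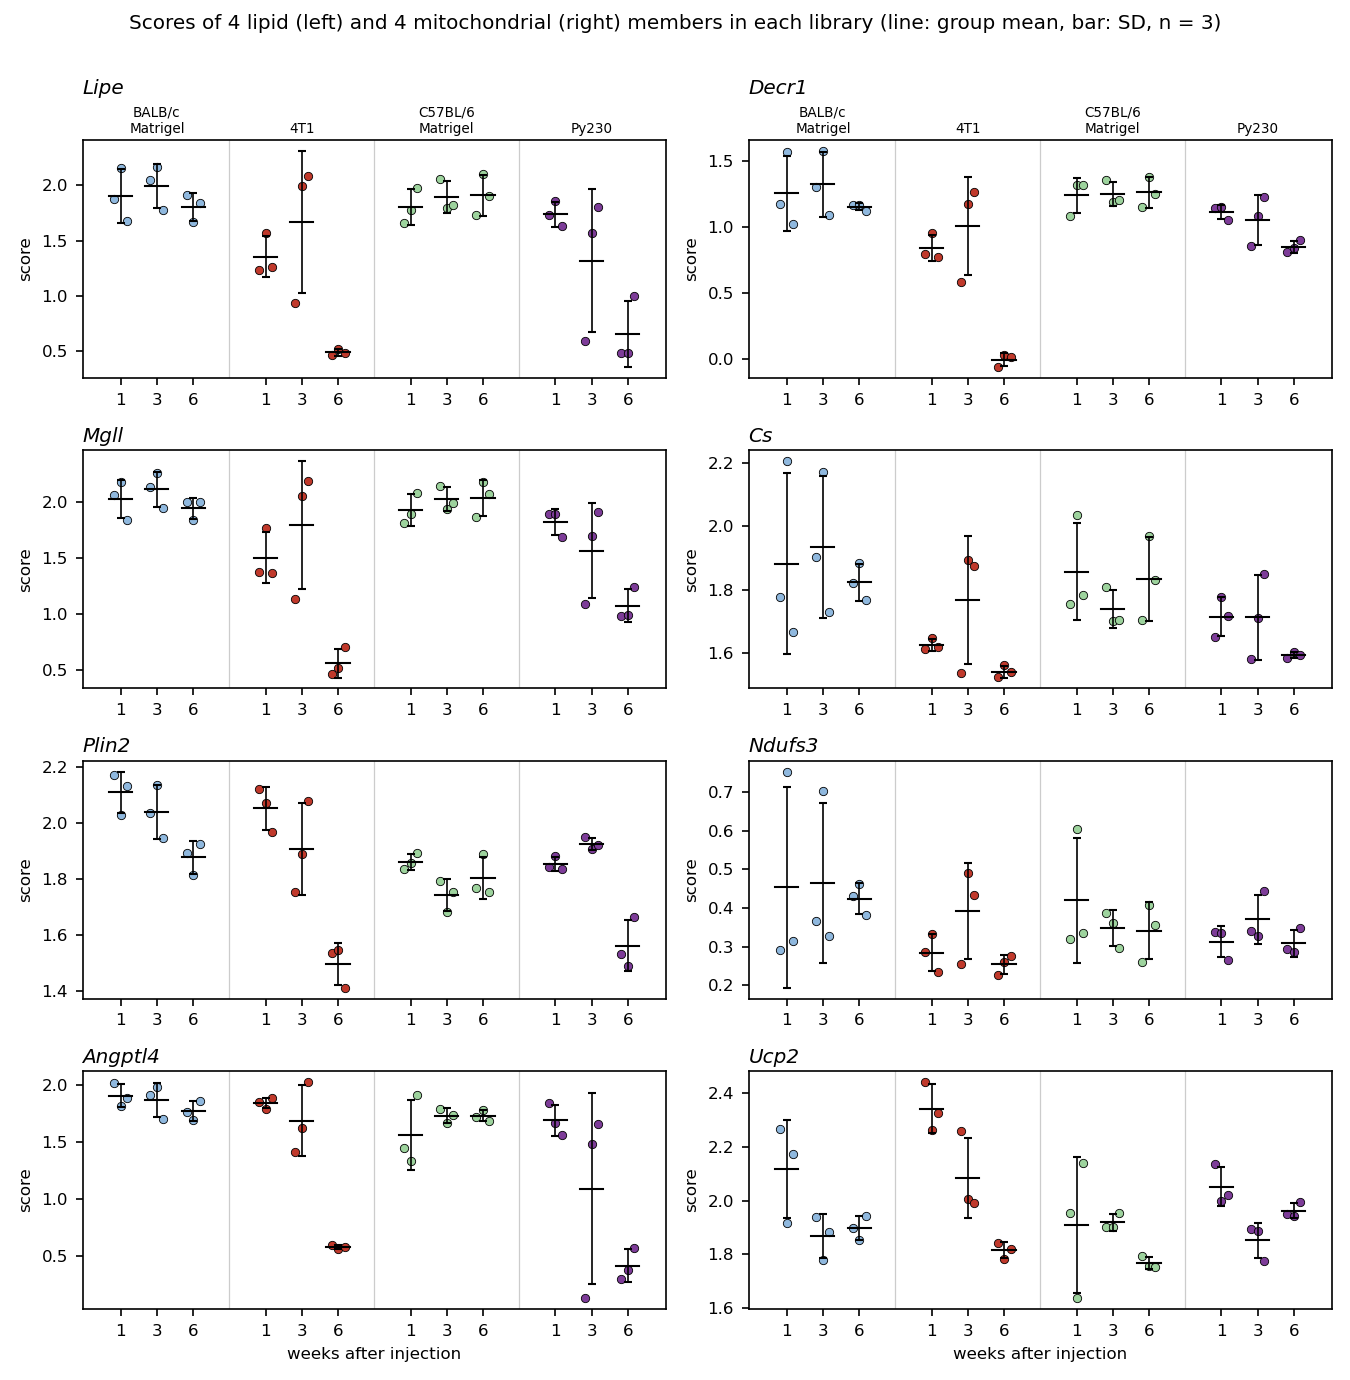
Scores of 4 lipid genes (Lipe, Mgll, Plin2, Angptl4) and 4 mitochondrial genes (Decr1, Cs, Ndufs3, Ucp2) in all 36 libraries (y axis, score units; x axis, group and week); each point is 1 library, each line a group mean and each bar the SD (n = 3). By group mean, Lipe, Mgll and Angptl4 are lowest in the week 6 tumors of each model, and Decr1 is lowest in the week 6 4T1 tumors.

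Of 7 members that build fatty acids, glycerides or sterols, 5 were lower in 4T1 and 6 in Py230 tumors at 6 w p.i., with medians of -0.737 and -0.704. Me1, the malic enzyme that supplies NADPH, fell by 1.25 in 4T1 and by 1.02 in Py230, and Elovl6, the elongase that lengthens palmitate, by 0.882 and 1.02. Dgat1 makes triglyceride and Gpam makes lysophosphatidic acid, the first step of glyceride synthesis. They fell by 0.737 and 0.750 in 4T1, and by 0.598 and 0.704 in Py230. Acly, which produces cytosolic acetyl-CoA from citrate, had tumor scores of 1.77, 1.82 and 1.80 in 4T1 and 1.74, 1.71 and 1.80 in Py230, with 2.59, 2.44 and 2.06 and 2.37, 2.78 and 2.52 in the glands. Its difference in 4T1 was -0.569 ± 0.246 (adjusted p = 0.0485), a call that was lost without any 1 of the 3 tumors, or without gland replicate 1 or 2, at values from -0.46 to -0.58. In Py230 it was -0.811 ± 0.246 (adjusted p = 0.00834). The Elovl6 call in 4T1 was lost without 4T1 replicate 1 (-0.77) or BALB/c gland replicate 1 (-0.80). Dhcr7, which catalyzes the last step of cholesterol synthesis, went the other way in Py230, where it rose by 0.327 ± 0.0833 (adjusted p = 0.00217). In 4T1 its difference was 0.0510 ± 0.0833 (adjusted p = 0.613).

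Among 5 members of lipid uptake and transport, 3 were lower in 4T1 and 4 in Py230 tumors (medians -0.255 and -0.352). Angptl4, a secreted inhibitor of lipoprotein lipase, scored 0.597, 0.560 and 0.585 in 4T1 and 0.297, 0.379 and 0.577 in Py230 tumors. The glands scored 1.77, 1.69 and 1.86 in BALB/c and 1.73, 1.78 and 1.69 in C57BL/6, so that no tumor reached any gland, and the differences were -1.19 ± 0.224 (adjusted p = 6.24e-05) and -1.32 ± 0.224 (adjusted p = 3.71e-05). Scarb1, the receptor that takes up cholesterol from high-density lipoprotein, differed by -0.255 ± 0.0603 in 4T1 (adjusted p = 0.000769). Abca1, which exports cholesterol from cells, differed by -0.352 ± 0.0753 in Py230 (adjusted p = 0.000435). Scarb1 and Abca1 were each called lower in both models. Apoe, the apolipoprotein made by macrophages as well as by fat, did not pass the test in either model (0.0306 ± 0.121 in 4T1 and -0.268 ± 0.121 in Py230, adjusted p = 0.840 and 0.0695).

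The remaining 11 lipid members act on phospholipids, retinoids, eicosanoids or peroxisomal lipids, and 8 were lower in 4T1 and 9 in Py230 tumors at 6 w p.i. (medians -0.260 and -0.276). Ephx2, the soluble epoxide hydrolase that breaks down epoxy fatty acids, scored -0.834, -0.761 and -0.541 in 4T1 and 0.0757, -0.0127 and 0.459 in Py230 tumors, against 1.18, 0.929 and 1.22 and 1.08, 1.44 and 1.24 in the glands. Its 4T1 difference of -1.82 ± 0.263 (adjusted p = 2.05e-06) was the largest on the lipid list, and that in Py230 was -1.08 ± 0.263 (adjusted p = 0.00144). Enpp2, the autotaxin that produces lysophosphatidic acid outside cells, fell by 0.739 in 4T1 and by 1.23 in Py230. Cyp4b1, a cytochrome P450, fell by 1.11 and 0.400. Pemt, which methylates phosphatidylethanolamine to phosphatidylcholine, rose in Py230 (0.246 ± 0.101, adjusted p = 0.0474) and had a difference of 0.0580 ± 0.101 in 4T1 (adjusted p = 0.638).

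**Figure D3:**
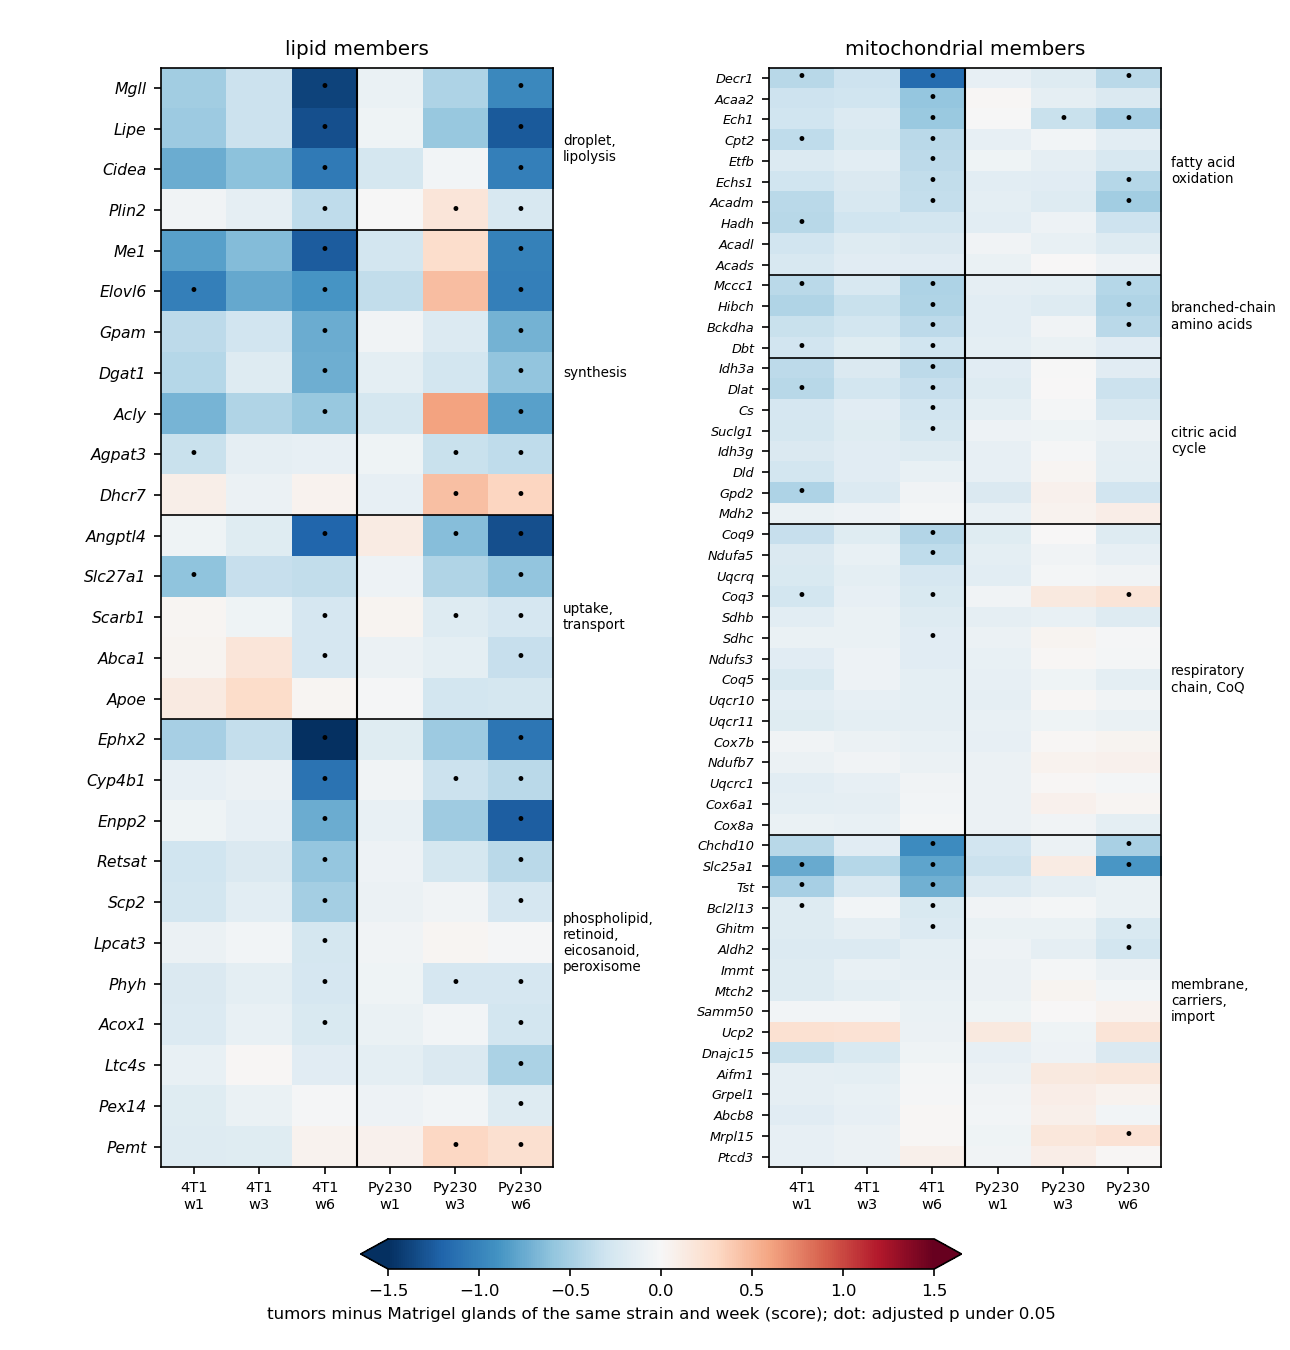
Difference between tumors and same-strain Matrigel glands (color, score units) for the members drawn from each list in both models and at each week; a dot marks an adjusted p under 0.05. Most lipid rows are darkest at week 6 in both models, with 20 and 23 of the 27 called lower.

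Of the 54 mitochondrial members, 25 were lower and 0 higher at 6 w p.i. in 4T1 tumors than in BALB/c glands, where 21.5% of all genes were lower. In Py230 tumors 11 were lower and 2 higher than in C57BL/6 glands, where 18.7% of all genes were lower and 47.6% were called, so that the share of members lower was near that of all genes and the share called was under it. Medians over the list were -0.200 and -0.136. The groups lay fully apart, with the tumors below, for 43 members in 4T1 and 33 in Py230, and for 25.1% and 26.3% of all genes. The counts called depended on how the spread was estimated. With only the 6 libraries of the comparison in the fit, 41 members were called in 4T1, all of them lower. In Py230 30 were called by that fit, 26 lower and 4 higher. The share of all genes called by that fit was not counted, so these counts cannot be set against it. The 8 skeletal muscle markers, from a tissue rich in mitochondria that lies next to the gland, were all lower in 4T1 tumors (mean scores -0.339, -0.640 and 0.178 against 2.16, 2.57 and 2.11 in the glands). In Py230 tumors limma called 0 of the 8 and none had an unadjusted p under 0.05, although all 8 lay fully below the glands, and the means were -0.730, 1.16 and 0.922 against 1.58, 1.85 and 1.83. Of 5 brown adipocyte markers, 3 were lower in 4T1 (Cox8b, Ppargc1a and Cox7a1) and 0 were called in Py230 tumors (0 at an unadjusted p under 0.05). Ucp1 and Elovl3 were not called in 4T1 (-0.0519 and -0.696). The mean Ucp1 score was -1.88 in the 4T1 tumors and already -1.83 in the BALB/c glands of that week. The part of these markers in the mitochondrial result was not tested.

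Fatty acid oxidation was the sublist with the strongest single result. It had 7 of 10 members lower in 4T1 and 4 in Py230 (medians -0.383 and -0.276). Decr1, the dienoyl-CoA reductase needed to oxidize polyunsaturated fatty acids (chr4:15917240-15945507 in mm10, minus strand), scored -0.0593, 0.0337 and 0.0178 in 4T1 tumors and 1.17, 1.17 and 1.12 in BALB/c glands, while Py230 tumors scored 0.810, 0.845 and 0.898 and C57BL/6 glands 1.15, 1.38 and 1.25. No tumor overlapped a gland in either model, and the difference was -1.16 ± 0.138 in 4T1 (adjusted p = 1.1e-07) and, in Py230, -0.409 ± 0.138 (adjusted p = 0.0160). Ech1, an isomerase of the same auxiliary steps, fell by 0.557 and 0.499. Acadm, the medium-chain acyl-CoA dehydrogenase, differed by -0.363 ± 0.144 and -0.524 ± 0.144 (adjusted p = 0.0325 and 0.00409). The Acadm call in 4T1 was lost without 4T1 replicate 1 or 2 or any 1 of the glands, at values from -0.34 to -0.37. Acadl, its long-chain counterpart, did not pass in either model (-0.214 ± 0.105 and -0.190 ± 0.105, adjusted p = 0.0810 and 0.141).

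Of the 4 members that break down branched-chain amino acids, 4 were lower in 4T1 and 3 in Py230 (medians -0.422 and -0.419). Mccc1, a subunit of the leucine-degrading methylcrotonyl-CoA carboxylase, fell by 0.458 in 4T1 and 0.433 in Py230, and Bckdha, of the branched-chain ketoacid dehydrogenase, by 0.396 and 0.406. Of 9 members of the citric acid cycle and pyruvate metabolism, 5 were lower in 4T1 tumors and limma called 0 in Py230, where 2 were lower at an unadjusted p under 0.05 (medians -0.265 and -0.145). Idh3a, a subunit of NAD-dependent isocitrate dehydrogenase, fell by 0.392 in 4T1. Cs, the citrate synthase that opens the cycle, scored 1.52, 1.56 and 1.54 in 4T1 and 1.58, 1.60 and 1.59 in Py230 tumors, and 1.82, 1.88 and 1.77 and 1.70, 1.97 and 1.83 in the glands. The 4T1 and gland scores did not overlap, and neither did the Py230 scores and theirs, but only the 4T1 difference passed the test (-0.283 ± 0.112, adjusted p = 0.0322, against -0.241 ± 0.112, adjusted p = 0.0792). That call was lost without any 1 of the 4T1 tumors or gland replicate 1 or 2, at values from -0.25 to -0.29.

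Of the 15 members that belong to the respiratory chain or make coenzyme Q, 4 were lower in 4T1, and in Py230 limma called 1 higher and 0 lower, with 0 lower at an unadjusted p under 0.05 (medians -0.142 and -0.0546). In 4T1 the 15 differences ran from -0.44 for Coq9 to -0.03 for Cox8a, and in Py230 from -0.20 for Coq9 to 0.20 for Coq3. Both Coq genes serve coenzyme Q synthesis and Cox8a is a subunit of cytochrome c oxidase. Ndufs3, a core subunit of complex I, scored 0.228, 0.260 and 0.277 in 4T1 and 0.294, 0.285 and 0.349 in Py230 tumors, against 0.430, 0.461 and 0.381 and 0.261, 0.407 and 0.357 in the glands. It did not pass in either model (-0.169 ± 0.0941 and -0.0322 ± 0.0941, adjusted p = 0.123 and 0.806), although its 4T1 difference passed with only the libraries of that comparison in the fit. Sdhb, the iron-sulfur subunit of complex II, was not called either, with -0.196 ± 0.113 and -0.194 ± 0.113 (adjusted p = 0.136 and 0.162). Ndufa5, another complex I subunit, was lower in 4T1 (-0.377 ± 0.103, adjusted p = 0.00277).

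Of 16 members of the mitochondrial membrane, carriers, import machinery and other mitochondrial functions, 5 were lower in 4T1 and 4 in Py230 tumors (medians -0.105 and -0.0676). Slc25a1, the citrate carrier that feeds fatty acid synthesis in the cytosol, fell by 0.792 and 0.868. Chchd10, a protein of the intermembrane space, fell by 0.949 in 4T1 and was called lower in Py230 too. Tst, the thiosulfate sulfurtransferase, fell by 0.719 in 4T1 and was not called lower in Py230. Mrpl15, of the mitochondrial ribosome, rose in Py230 tumors (0.219 ± 0.0692, adjusted p = 0.0108). Ucp2, a carrier of the uncoupling protein family that is common in leukocytes, scored 1.84, 1.78 and 1.82 in 4T1 and 1.95, 1.94 and 2.00 in Py230 tumors, and was not called against the glands (-0.0834 ± 0.0884 and 0.195 ± 0.0884, adjusted p = 0.427 and 0.0712).

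In both models together, 19 lipid members were lower at 6 w p.i., 1 was lower in 4T1 only (Lpcat3, a lysophospholipid acyltransferase), 4 in Py230 only (Agpat3, Ltc4s, Pex14 and Slc27a1) and 3 in neither. On the mitochondrial list 10 were lower in both, 15 in 4T1 only, 1 in Py230 only (Aldh2) and 28 in neither. Whether the tumor-gland difference itself differed between the models was tested as the 4T1 minus Py230 difference after subtracting the difference of their Matrigel glands, which called 25.5% of all genes at 6 w p.i. Only 2 of the 15 mitochondrial members lower in 4T1 only passed it, Tst (-0.623 ± 0.231, adjusted p = 0.0483) and Coq3 (-0.428 ± 0.0942, adjusted p = 0.00119). Decr1 (-0.746 ± 0.195, adjusted p = 0.00532) passed as well, as did Cyp4b1 (-0.711 ± 0.150, adjusted p = 0.000773) and Lpcat3 (-0.245 ± 0.0540, adjusted p = 0.00124) on the lipid list. For the remaining lipid and mitochondrial members a difference between the models was not shown. The plot of week 6 differences sets the models side by side.

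**Figure D4:**
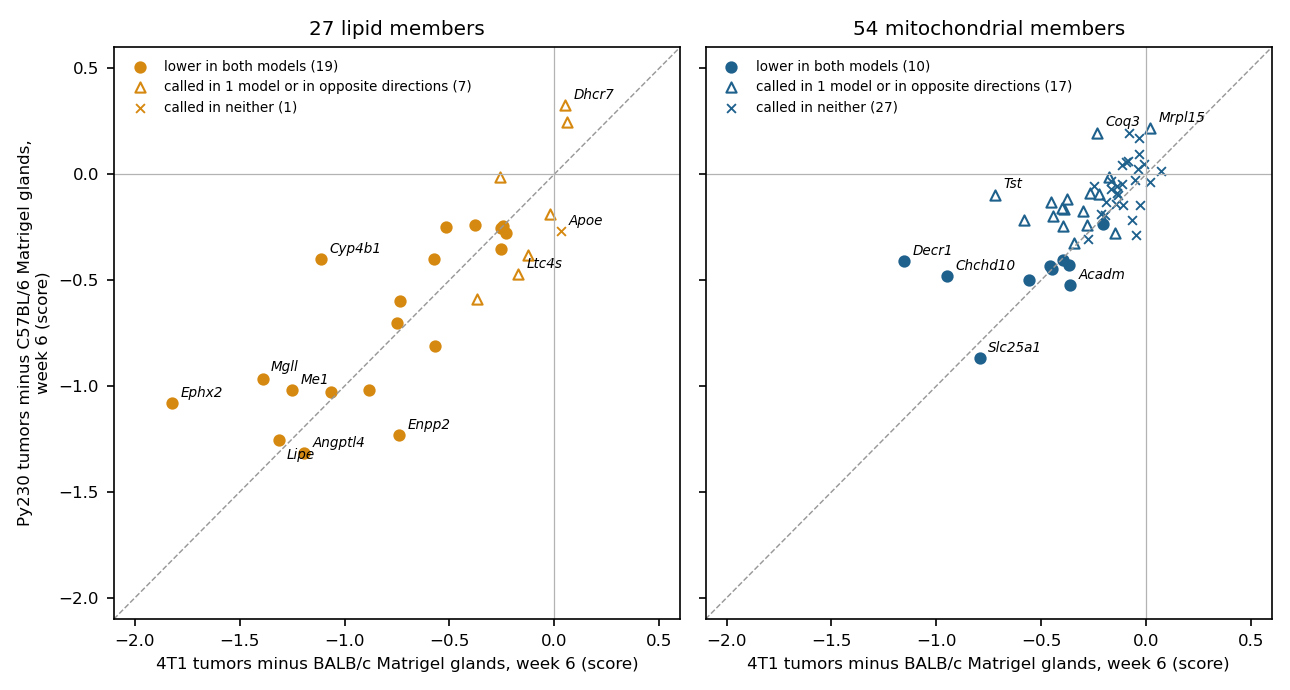
Difference between tumors and same-strain Matrigel glands at week 6 in the 4T1 model (x axis) and the Py230 model (y axis), in score units; each point is 1 lipid (left) or mitochondrial (right) member, filled where lower in both models, a triangle where called in 1 model or in opposite directions and a cross where called in neither, and the dashed line marks equal differences. Lipid members reach -1.82 (Ephx2, 4T1) and -1.32 (Angptl4, Py230), most mitochondrial members lie nearer to 0, and Decr1 lies further down in 4T1 (-1.16) than in Py230 (-0.41).

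The other marker lists moved at 6 w p.i. as well. All 6 proliferation markers were higher in both models. Of 7 leukocyte markers 4 were higher in 4T1, and 1 was higher and 1 lower in Py230. Of 6 markers of the lactating epithelium 4 were lower in 4T1 (median -1.96), and 2 were lower and 1 higher in Py230 (median 0.0913). Of 7 epithelial keratin and adhesion markers 1 was higher and 3 lower in 4T1, with 2 higher in Py230. In every library Krt8, Krt18 and Epcam, which carcinoma cells also express, scored above 1, whereas of the basal keratins Krt5 scored -0.207 and -0.708 in 4T1 replicates 1 and 2 and Krt14 scored -0.402 in replicate 2. Csn3 and Csn1s1, the milk caseins, lay between -0.157 and -0.497 in the 4T1 tumors of that week, against means of 2.38 and 2.37 in the BALB/c glands. Scores below 0 are no absence of expression, and whether milk-producing epithelium remained in these tumors was not tested.

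At 1 w p.i. the lists differed from the glands in 4T1 only by calls that hung on single libraries. There, 3 lipid members (Agpat3, Elovl6 and Slc27a1) and 11 mitochondrial members were lower, where 16.6% of all genes were called and 6.72% were called lower, and medians were -0.212 and -0.229 beside -0.00677 over all genes. The mitochondrial calls spread over the sublists. Mccc1 (-0.406 ± 0.129, adjusted p = 0.0337) and Dbt were in amino acid breakdown, and Gpd2 and Dlat in the citric acid cycle group. Cpt2, Decr1 and Hadh were in fatty acid oxidation, and Coq3 (-0.270 ± 0.0666, adjusted p = 0.0107) in the respiratory chain group. Bcl2l13, Slc25a1 and Tst were in the group of membrane, carriers, import and other functions. Slc25a1 scored 1.08, 1.39 and 1.31 in the tumors and 1.86, 2.37 and 1.80 in the glands. Gland replicate 2, the library with the highest Ucp1 and skeletal muscle markers, was thus the highest, and the other glands lay nearer to the tumors. The muscle markers averaged -0.639, 1.83 and 0.831 in these tumors, with 0 of 8 called by limma and 0 at an unadjusted p under 0.05. Of the 7 leukocyte markers 5 were higher in the tumors (Ptprc, Itgam, Cd3e, Adgre1 and Lyz2, by 0.406 to 0.674), with means of 0.849, 0.749 and 0.920 against 0.491, 0.126 and 0.532 in the glands, and 2 of 6 proliferation markers were higher. Of 5 brown adipocyte markers 1, Ppargc1a, was lower (-0.795), and limma called 0 of 10 adipocyte markers, with 0 at an unadjusted p under 0.05. The part of these markers in the result was not tested. Without gland replicate 2, 0 lipid and 0 mitochondrial members were called. The same held without 4T1 replicate 1 or replicate 3, whereas 9 lipid and 36 mitochondrial members were called without gland replicate 3, 6 and 18 without 4T1 replicate 2, and 6 mitochondrial members without gland replicate 1. In Py230 tumors at 1 w p.i. limma called 0 lipid and 0 mitochondrial members against the glands, none had an unadjusted p under 0.05, and 0.00924% of all genes were called.

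At 3 w p.i. limma called 0 of the 27 lipid and 0 of the 54 mitochondrial members between 4T1 tumors and glands, where 3.25% of all genes were called. At an unadjusted p under 0.05, 2 lipid members were higher and 3 lower, and 1 mitochondrial member was higher and 5 lower. Lipe illustrates the spread behind these counts, with 0.934, 1.99 and 2.09 in the 4T1 tumors against 2.04, 2.16 and 1.78 in the glands. Replicate 1 of the tumors was low and the others were at the level of the glands. Without 4T1 replicate 3, 2 lipid members were called. In Py230 tumors 3 lipid members were higher and 5 lower than in the C57BL/6 glands, and 1 mitochondrial member was lower (Ech1, -0.331 ± 0.115, adjusted p = 0.0426), where 19.7% of all genes were called. Dhcr7 and Pemt were higher, by 0.451 ± 0.0833 (adjusted p = 0.000575) and 0.305 ± 0.101 (adjusted p = 0.0345), as was Plin2 by 0.183 ± 0.0635 (adjusted p = 0.0425), a call lost without any 1 of the 6 libraries. Dhcr7 scored 1.06, 0.926 and 0.804 in the Py230 tumors and 0.522, 0.478 and 0.438 in the glands, without overlap. Without Py230 replicate 1, the tumor with the lowest adipocyte markers, 1 lipid member was called, and without replicate 3, which had the highest, 14 were. Without Py230 replicate 2 there were 4, without any 1 gland 2, and with only the 6 libraries of the comparison in the fit 0. The mitochondrial count was 2 without Py230 replicate 3 and 0 without any 1 of the other 5 libraries.

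The direct comparison of 4T1 with Py230 tumors asked how the metastatic and the non-metastatic model differ at each time point. At 1 w p.i. 1 lipid and 1 mitochondrial member were called, both higher in 4T1, where 19.4% of all genes were called. Plin2 scored 2.12, 2.07 and 1.97 in 4T1 and 1.84, 1.88 and 1.83 in Py230 tumors (0.200 ± 0.0635, adjusted p = 0.0285). Ucp2 scored 2.44, 2.26 and 2.32 and 2.14, 2.00 and 2.02 (0.290 ± 0.0884, adjusted p = 0.0229). Neither gene overlapped between the models, and all 4T1 tumors lay above all Py230 tumors for 20.5% of all genes. The Matrigel glands of the same week differed in Plin2 too, by 0.248 ± 0.0635 (adjusted p = 0.0240), and with the gland difference subtracted, where 0.305% of all genes were called, Plin2 had the opposite sign (-0.0482 ± 0.0898, adjusted p = 0.823) and Ucp2 was not called (0.0809 ± 0.125, adjusted p = 0.780). The Plin2 call was lost without 4T1 replicate 1 or 2 or Py230 replicate 1 or 3, and the Ucp2 call without 4T1 replicate 1 or 3 or Py230 replicate 2 or 3, at values between 0.17 and 0.30. Markers differed in the same tumors. The lactating epithelium markers other than Csn3 were higher in 4T1, as were leukocyte Ptprc (0.433), Itgam (0.545), Cd3e (0.653) and Lyz2 (0.403). Adipocyte Lep was lower (-0.852), and no further marker was called. With the gland difference subtracted these markers were not called, and their part was not tested.

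At 3 w p.i. 5 lipid members were higher and 2 lower in 4T1 than in Py230 tumors, and 1 mitochondrial member was higher, where 30.3% of all genes were called. The higher ones included Ltc4s, the leukotriene C4 synthase (0.514 ± 0.119, adjusted p = 0.00185), and the cholesterol exporter Abca1 (0.364 ± 0.0753, adjusted p = 0.00068). Apoe scored 3.18, 2.80 and 2.85 in 4T1 and 2.27, 2.50 and 2.63 in Py230 tumors. These scores did not overlap, and differed by 0.476 ± 0.121 (adjusted p = 0.00392). Of the 7 leukocyte markers 3 were higher in the same 4T1 tumors: the macrophage markers Adgre1 (0.420) and Lyz2 (0.416), and Itgam (0.624). Adgre1 scored 1.81, 1.47 and 1.36 in 4T1 and 1.12, 1.14 and 1.12 in Py230 tumors, and Lyz2 2.85, 2.58 and 2.57 and 2.14, 2.29 and 2.31, both without overlap. Of the other lists 3 of 6 proliferation and 2 of 7 epithelial markers were lower, and of 6 markers of the lactating epithelium 2 were higher and 2 lower, and the part of these markers was not tested. Angptl4 (0.599) and Scarb1 (0.160) were also higher, whereas Dhcr7 (-0.331 ± 0.0833, adjusted p = 0.00367) and Pemt (-0.302 ± 0.101, adjusted p = 0.0250) were lower. With the gland difference subtracted, 9.15% of all genes were called, and on the lipid list Apoe (0.550 ± 0.171), Dhcr7 (-0.542 ± 0.118), Pemt (-0.492 ± 0.143) and Plin2 (-0.315 ± 0.0898). Adgre1 (0.648) and Itgam (0.608) were higher by that test as well, and 3 of 6 lactating epithelium markers were lower. The number of lipid members called depended on single libraries, among them the tumor of each model with the lowest adipocyte markers, replicate 1. It was 15 without 4T1 replicate 1, 4 without Py230 replicate 1, and 0 with only the 6 tumors in the fit. The part of the adipocyte content in this was not tested. The number of mitochondrial members ran from 0 without any 1 of the Py230 tumors to 2 without 4T1 replicate 2 or 3 and 4 without 4T1 replicate 1.

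At 6 w p.i. 2 lipid members were higher and 6 lower in 4T1 than in Py230 tumors, and 3 mitochondrial members were lower, where 40.8% of all genes were called, 24.1% higher and 16.7% lower. Medians were -0.0716 for the lipid and -0.0532 for the mitochondrial members, beside 0.0364 over all genes. Every 4T1 tumor lay under every Py230 tumor for 30 of the 54 mitochondrial and 11 of the 27 lipid members, which was so for 23.2% of all genes. Decr1, whose week 6 scores are given above, differed by -0.854 ± 0.138 (adjusted p = 1.41e-05), and Tst and Coq3 by -0.529 ± 0.163 (adjusted p = 0.0107) and -0.337 ± 0.0666 (adjusted p = 0.00018). On the lipid list Cyp4b1 scored -0.282, -0.224 and -0.192 in 4T1 and 0.443, 0.491 and 0.486 in Py230 tumors (-0.706 ± 0.106, adjusted p = 4.95e-06). Lpcat3 scored 0.777, 0.758 and 0.732 and 1.02, 1.04 and 0.991 (-0.262 ± 0.0382, adjusted p = 3.22e-06). Both were lower in each 4T1 tumor than in any Py230 tumor. Ephx2 (-0.886), Mgll (-0.514), Dhcr7 (-0.358) and Scp2, a sterol carrier of the peroxisome (-0.360), were lower as well, and Ltc4s (0.399) and the acyltransferase Agpat3 (0.291) higher. In the same tumors 5 of 6 markers of the lactating epithelium and 1 of 10 adipocyte markers were lower in 4T1. Epithelial Cdh1 (-0.315), Krt19 (-1.25) and Krt5 (-1.36) and brown adipocyte Cox8b (-0.753) and Ppargc1a (-0.683) were lower too. Leukocyte Itgam (0.624), S100a8 (1.09) and Lyz2 (0.514) were higher. The other markers of these lists, and the proliferation and skeletal muscle markers, were not called. The part of all these markers was not tested. With only the 6 tumors in the fit, 15 lipid members (5 higher, 10 lower) and 22 mitochondrial members (2 higher, 20 lower) were called. The share of all genes called by that fit was not counted.

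**Figure D5:**
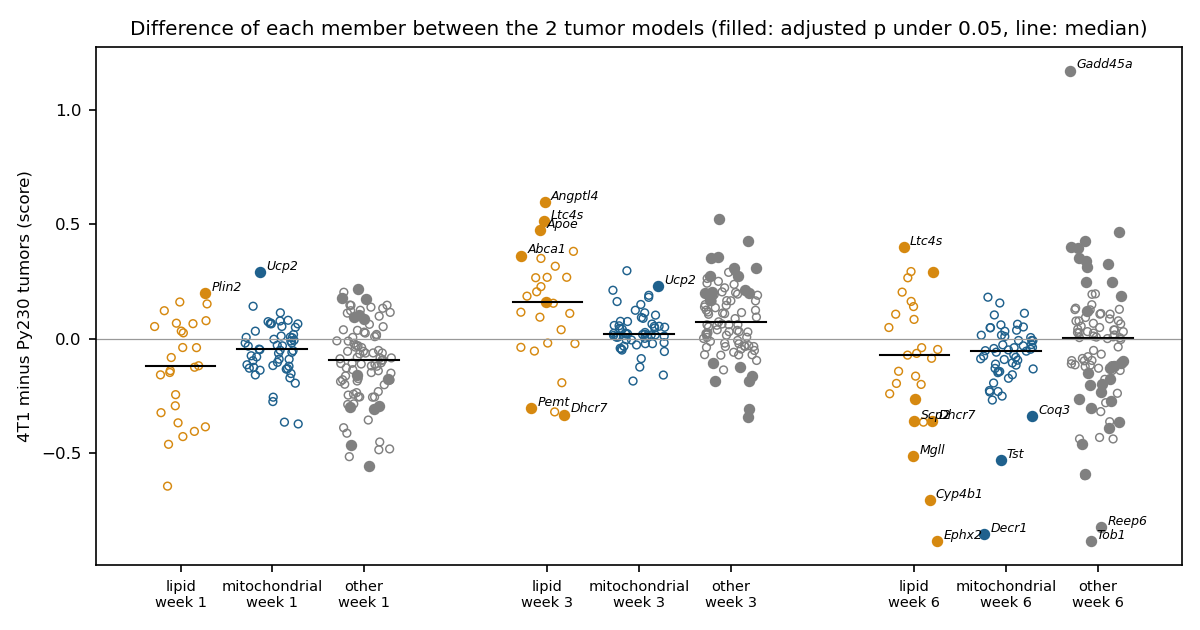
Difference between 4T1 and Py230 tumors (y axis, score units) at weeks 1, 3 and 6 for the lipid, mitochondrial and other members (x axis, spread sideways for legibility); each point is 1 gene, filled where called and open where not, and each line is the median of its list. Points above 0 are higher in 4T1; Decr1 reaches -0.854 and Ephx2 -0.886 at week 6, and Angptl4 0.599 at week 3.

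The difference between the models also changed over time for some members. From 1 to 3 w p.i. limma called 1 lipid member, Dhcr7 (-0.454 ± 0.118, adjusted p = 0.0120), and 0 mitochondrial members (0 higher and 0 lower at an unadjusted p under 0.05), where 15.3% of all genes were called. From 3 to 6 w p.i. it called 4 lipid members (Cyp4b1, Lpcat3, Ephx2 and Mgll) and 3 mitochondrial members (Decr1, Tst and Ucp2), all toward lower values in 4T1, where 26.7% of all genes were called. Cyp4b1 changed by -0.975 ± 0.150 (adjusted p = 2.75e-05), Decr1 by -0.804 ± 0.195 (adjusted p = 0.00313) and Ephx2 by -1.15 ± 0.372 (adjusted p = 0.0225). Without 4T1 replicate 1 at 3 w p.i., the tumor low in adipocyte markers, the counts were 11 lipid and 5 mitochondrial members for the first interval and 8 and 6 for the second.

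The 91 members on neither list included the farthest tumor-gland differences of all. At 6 w p.i. 49 were lower and 10 higher in 4T1, and 51 lower and 10 higher in Py230 tumors, where 21.5% and 18.7% of all genes were lower and 60.1% and 47.6% were called. Retn, which encodes the adipocyte hormone resistin, scored -0.631, -0.710 and -0.404 in 4T1 and -0.738, -0.510 and 0.816 in Py230 tumors, against 1.66, 1.40 and 1.66 and 1.73, 2.13 and 1.94 in the glands. Every tumor lay under every gland, with differences of -2.16 ± 0.377 (adjusted p = 2.76e-05) and -2.08 ± 0.377 (adjusted p = 8.03e-05). Sncg, a synuclein abundant in fat, fell by 1.84 and 1.69, Adig, the adipogenin of fat cells, by 1.80 in 4T1, and Orm1, an acute-phase glycoprotein, by 1.75 in Py230. Adig and Orm1 were each called lower in both models. Orm1 has near-identical copies (Orm2 and Orm3, also members), and reads may be split between them. Genes of glycolysis and glucose use, picked out after their values were seen, went both ways. Pfkl, the liver-type phosphofructokinase, rose by 0.426 in 4T1 and 0.229 in Py230, and the phosphoglucomutase Pgm1 by 0.402 and 0.342. Pfkfb3, which makes the activator of phosphofructokinase, fell by 0.433 and 0.733. The aldolase Aldoa was lower in 4T1 (-0.631 ± 0.207, adjusted p = 0.0109) and was not called in Py230 (-0.332 ± 0.207, adjusted p = 0.193), and its reads may be shared with the near-identical members Aldoart1 and Aldoart2.

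Gadd45a, a stress-response gene induced by DNA damage, went in opposite directions in the models. It scored 1.38, 1.16 and 1.21 in 4T1 tumors and 0.229, 0.257 and 0.489 in BALB/c glands, but 0.0614, 0.0400 and 0.136 in Py230 tumors and 0.520, 0.483 and 0.475 in C57BL/6 glands. Tumors lay above the glands in 4T1 (0.927 ± 0.0903, adjusted p = 4.3e-09) and below them in Py230 (-0.414 ± 0.0903, adjusted p = 0.000525), and this difference between the models passed its test (1.34 ± 0.128, adjusted p = 1.51e-08). Between the tumors at 6 w p.i., 13 of these 91 members were higher and 18 lower in 4T1, where 24.1% of all genes were higher and 16.7% lower. The largest were Gadd45a (1.17), Rab34 (0.467) and Phldb1 (0.428) on the higher side, and Tob1, an antiproliferative protein (-0.884), Reep6 (-0.823) and Itih5 (-0.592) on the lower.

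Between the Matrigel glands themselves few members differed. Between BALB/c and C57BL/6 glands, the members limma called included the droplet coat gene Plin2 at 1 w p.i. (0.248), Plin2 (0.296), the acetyl-CoA producer Acly (1.00) and the reductase Dhrs7 (0.387) at 3 w p.i., and the transcriptional repressor Bcl6 (-0.268) at 6 w p.i., where 3.06%, 3.77% and 3.84% of all genes were called. The Plin2 call at 1 w p.i. was lost without replicate 1 or 3 of the BALB/c or replicate 1 or 2 of the C57BL/6 glands. At 3 w p.i. 0 of these lipid members were called without BALB/c replicate 2, the library with high Ucp1. From 1 to 6 w p.i. limma called 0 lipid and 0 mitochondrial members in the glands of either strain, with 1 lipid and 1 mitochondrial member lower at an unadjusted p under 0.05 in BALB/c and none in C57BL/6, where 0.0831% and 0.194% of all genes were called.

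Promoter sequence was set beside these lists as a description. RefSeq start sites (GRCm38.p6, the same assembly as mm10) with 250 bases before and 50 after the start were found for 138 of the 172 members, among them 62 of the 81 lipid and mitochondrial members. The windows of Plin2 and Mgll, both lower in both models at 6 w p.i., and of Acadm and Sdhb, of which Acadm was called and Sdhb was not, are given up to the base before the start, 5′ to 3′ on the gene's strand, to show the motifs searched for. Capitals mark AGGTCA, the core site of nuclear receptors such as PPARs (in Acadm with a leading A, as AAGGTCA; in Plin2 and Acadm on the opposite strand, so that the capitals read TGACCT and TGACCTT), and GCATGC, part of the site of the mitochondrial regulator NRF1, which reads the same on both strands.
Plin2, chr4:86670060-86670309, minus strand: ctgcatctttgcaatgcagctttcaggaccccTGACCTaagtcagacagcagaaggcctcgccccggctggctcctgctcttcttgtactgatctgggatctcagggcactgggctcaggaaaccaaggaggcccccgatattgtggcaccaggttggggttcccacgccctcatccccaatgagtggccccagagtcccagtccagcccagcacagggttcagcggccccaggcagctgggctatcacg
Mgll, chr6:88724162-88724411, plus strand, the first of 2 start sites: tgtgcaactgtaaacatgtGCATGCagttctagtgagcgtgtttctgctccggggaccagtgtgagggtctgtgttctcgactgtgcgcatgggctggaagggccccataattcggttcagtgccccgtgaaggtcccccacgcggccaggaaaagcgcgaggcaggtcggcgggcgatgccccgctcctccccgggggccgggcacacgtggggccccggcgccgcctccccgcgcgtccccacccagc
Sdhb, chr4:140961021-140961270, plus strand: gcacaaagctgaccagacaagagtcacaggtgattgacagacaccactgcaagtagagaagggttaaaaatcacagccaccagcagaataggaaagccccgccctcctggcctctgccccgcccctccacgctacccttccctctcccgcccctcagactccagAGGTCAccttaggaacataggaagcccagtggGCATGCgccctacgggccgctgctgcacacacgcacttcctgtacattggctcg
Acadm, chr3:153944644-153944893, minus strand: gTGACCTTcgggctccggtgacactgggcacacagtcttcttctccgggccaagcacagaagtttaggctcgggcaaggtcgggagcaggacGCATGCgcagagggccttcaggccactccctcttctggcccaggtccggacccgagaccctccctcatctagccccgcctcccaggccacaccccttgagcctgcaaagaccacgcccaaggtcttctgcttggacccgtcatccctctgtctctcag

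Counting back from the start, Plin2 held AGGTCA on the opposite strand from base 218, Mgll held GCATGC from base 231, Sdhb held AGGTCA from base 86 and GCATGC from base 54, and Acadm held AAGGTCA on the opposite strand from base 249 and GCATGC from base 158. Over the 300-base windows on both strands, AGGTCA was in 29.0% of 31 lipid promoters, 25.5% of 47 mitochondrial promoters and 16.3% of all 32851 promoters. GCATGC was in 9.68%, 19.1% and 7.93%. AAGGTCA, which contains AGGTCA, was in 3.23%, 4.26% and 4.72%, and a pair of AGGTCA spaced by 1 base was found in 0 lipid and 0 mitochondrial promoters and in 0.0396% of all. CCAAT was in 29.0%, 38.3% and 37.4%, and GGGCGG in 54.8%, 63.8% and 35.7%. The windows also differed in composition. The median was 14 CpG pairs in lipid, 19 in mitochondrial and 7 in all promoters, with a median GC content of 58.3%, 60.0% and 52.7%. Among 105 promoters of members on neither list, the core nuclear receptor site was in 17.1% and the part of the NRF1 site in 14.3%. The motif named last was in 66.7% of them, and their medians were 21 CpG pairs and a GC content of 62.0%, each above the value of either list. On the lipid list the core nuclear receptor site was in 9 promoters of 7 genes, as a gene with several start sites counts more than once.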

How the data were processed

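RNA was sequenced from 4T1 and Py230 primary tumors and Matrigel-inoculated glands 1, 3 or 6 weeks after inoculation, with 36 libraries in 12 groups of 3 assigned from the sample titles. According to the processing notes, the authors aligned stranded paired-end reads with STAR to mm10 and normalized them with DESeq2 (versions are not given in the sources used here). The deposited values are scores, standardized within each library over 21650 genes. How they were scaled is not given in the sources used here, and no count test was possible. The authors' tables of fold changes and p-values were not used. A deposited table of hallmark flags (0 or 1) gave the members, and 0 expression columns were left unmapped.

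Scores were fitted with limma 3.58.1 (R 4.3.3), with 1 mean per group, all 36 libraries, a mean-variance trend and robust moderation. P-values were two-sided and adjusted over 21650 genes by the Benjamini-Hochberg method, with a threshold of 0.05. The script was tested on simulated data with independent noise for each gene and library. Those data held no shifts of whole libraries and no unequal spread between groups. Tables and figures were made with Python 3.11.15, pandas 2.3.3 and matplotlib 3.10.9. Members, gene lists, marker lists and tests were chosen with earlier results of these data known. The assignment of members to the lipid, mitochondrial and other lists was made by hand from gene function. Genes were named by a rule: fixed examples of each function, the 2 members with the smallest p in each sublist and comparison, and the 3 largest called differences in each direction among members on neither list. Further members, among them those named because a count was small, were chosen after their values were seen. The values of a few single members are not reported here, in the text or in the map of differences. Gene coordinates came from GENCODE vM21 and promoters from RefSeq (GRCm38.p6).

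Alternatives were median and MAD scaling, cyclic loess scaling, genes with a mean score above 0 only (12033 genes, 165 members), limma without trend and robust moderation, a replicate block, the libraries of the comparison only, subtraction of the Matrigel difference, and leaving out each library in turn. Leaving out the 3 gland libraries high in brown adipocyte markers was added after seeing the data. Reads of near-identical genes (Aldoa, Aldoart1 and Aldoart2; Orm1, Orm2 and Orm3; Cs and Csl) may be split between copies.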

Additional observations from a re-analysis of the deposited data

Results flagged for a closer look

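The difference between 4T1 and Py230 tumors changed between time points for a few members, by limma's test of the change itself, which counts as an effect that differs between groups. From 1 to 3 w p.i. this was 1 of 27 lipid members, Dhcr7, where 15.3% of all genes were called. From 3 to 6 w p.i. it was 4 of 27 lipid members (Cyp4b1, Lpcat3, Ephx2 and Mgll) and 3 of 54 mitochondrial members (Decr1, Tst and Ucp2). The share of all genes called for that interval was 26.7%. Ucp2, the uncoupling protein family carrier, changed by -0.381 score units from 3 to 6 w p.i. The first count was 0 without Py230 replicate 1 at 3 w p.i., 2 without 4T1 replicate 3 and 6 without Py230 replicate 3 of that week, 3 without 4T1 replicate 2 at 1 w p.i., and 11 without 4T1 replicate 1 at 3 w p.i. The second lipid count was 2 without 4T1 replicate 2 or Py230 replicate 1 at 3 w p.i. or Py230 replicate 3 at 6 w p.i., and 8 without 4T1 replicate 1 at 3 w p.i., and the mitochondrial count was 6 without the latter. The part of the adipocyte content of the 3 w p.i. tumors in these changes was not tested.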

How the results depend on the processing

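Of 1596 values of 126 results on single genes under an alternative, 1487 kept their side of the threshold, 58 were no longer called and 50 were newly called. Only 25 of the 126 results were called in the main fit, and the 58 lost calls all belong to these 25. The 1487 values thus include many that were called in neither fit and do not measure how stable the calls were. Values called in both fits kept their direction, and a change of sign was not counted where neither fit called the gene. Where at least 1 fit called it, 1 value changed sign. This was Plin2 in 4T1 minus Py230 tumors at 1 w p.i. with the Matrigel difference of the strains subtracted (-0.0482). Of 428 counts 332 stayed within 1.5 times, and a count with no member called in either fit was taken as unchanged. The share of all genes called under the alternatives was not counted, except with the Matrigel difference subtracted. Read depth is unknown, so no limit set by depth can be given.

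With only the libraries of the comparison in the fit, in which fewer samples estimate the spread, 4T1 minus Py230 called 0 lipid and 2 mitochondrial members at 1 w p.i., 0 and 0 at 3 w p.i. and 15 and 22 at 6 w p.i. Against the glands it called 0 and 0 in 4T1 at 1 w p.i., 41 mitochondrial members in 4T1 at 6 w p.i., 0 and 0 in Py230 at 3 w p.i. and 30 mitochondrial members in Py230 at 6 w p.i. Between the glands of the strains it called 0 lipid members at 1 w p.i. and 1 at 6 w p.i., and for the change of 4T1 minus Py230 it called 0 lipid members from 1 to 3 w p.i. and 2 from 3 to 6 w p.i. Subtracting the Matrigel difference from 4T1 minus Py230 gave 0 lipid and 0 mitochondrial members at 1 w p.i., 4 and 0 at 3 w p.i. and 2 lipid members at 6 w p.i. Cyclic loess gave 0 and 5 mitochondrial members for 4T1 minus Py230 at 3 and 6 w p.i., 5 lipid members for 4T1 against glands at 1 w p.i. and 0 mitochondrial members for Py230 against glands at 3 w p.i. Testing only genes with a mean score above 0 gave 8 lipid members for 4T1 against glands at 1 w p.i. and 2 for the first change. Without the 3 gland libraries high in brown adipocyte markers, an alternative chosen after seeing the data, 0 lipid and 0 mitochondrial members were called in 4T1 against glands at 1 w p.i., 0 lipid members between the strains at 3 w p.i. and 1 mitochondrial member in BALB/c glands from 1 to 6 w p.i. Apart from fewer samples or genes, the cause was not tested.

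The labels do not pair samples of equal number: of 54 such pairs 17 had a correlation of deviations above 0.1 (-0.543 to 0.790). The fit with a replicate block gave 3 mitochondrial members for 4T1 minus Py230 at 3 w p.i., 8 lipid and 22 mitochondrial members for 4T1 against glands at 1 w p.i., 2 mitochondrial members for Py230 against glands at 3 w p.i. and 2 lipid members for the first change, and moved no other count by over 1.5 times.

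Leaving out 1 library at a time, lipid counts at weeks 1, 3 and 6 ran from 0 to 1, 4 to 15 and 6 to 7 for 4T1 minus Py230, from 0 to 9, 0 to 2 and 17 to 18 for 4T1 against glands, and, for Py230 against glands, 0 to 0, 1 to 14 and 19 to 24. Mitochondrial counts ran from 0 to 1, 0 to 4 and 3 to 3, from 0 to 36, 0 to 0 and 17 to 21, and from 0 to 0, 0 to 2 and 9 to 14. Between the strains they ran from 0 to 1, 0 to 3 and 0 to 0 for lipid members, and 0 to 1, 0 to 0 and 0 to 0 for mitochondrial members. For the changes they ran from 0 to 11 and 2 to 8, and from 0 to 5 and 2 to 6.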
